A study of Mus musculus with 9 samples.

Results

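Gk, G6pd2, Hmgcs1 and Tfrc are 4 genes of glycerol, glucose, cholesterol and iron metabolism, and their RNA was measured in mouse abdominal aorta on 9 single-colour arrays. They were chosen by the RefSeq accession that the scanner files give for a spot, and each was matched by 1 probe. The array held 59709 probes but only 123 RefSeq accessions, so the 4 genes are 4 of the few that can be named. All 4 passed the filter on dim probes, and every spot of each was well above background on all 9 arrays.

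The arrays fell into 3 groups of 3, all from male mice. The naringenin group came from mice with an abdominal aortic aneurysm and a naringenin treatment (naringenin is a flavonoid of citrus fruit). The CaPO4 group came from mice with such an aneurysm and a CaPO4 treatment, in which calcium phosphate is used to provoke the aneurysm. The control group was labelled wild type. How the aneurysm of the naringenin group was induced, and the strain, age, dose, route and time, were not given in the sources used here. The study's design text says that 5 aortas per group were mixed, but not whether an array held a pool, an animal or a repeat of 1 pool, so the p-values may measure technical spread only.

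A level here is the log2 of the background-subtracted intensity minus the 75th percentile of the same array, so 0 is that percentile and a step of 1 is a doubling. The arrays of a group were not all alike. Across probes detected on every array, CaPO4 2 correlated with naringenin 1 and 2 at 0.972 each but with CaPO4 1 and 3 at 0.821 and 0.828. Naringenin 3 correlated with naringenin 1 and 2 at 0.945 and 0.948, against 0.996 between those. Its 75th percentile of intensity was 235, against 87.1 and 92.2 on naringenin 1 and 2. That percentile was 42.6 to 83.4 on the CaPO4 arrays and 116 to 117 on the controls. The controls were scanned on 1 day, naringenin 3 on another, and the CaPO4 arrays with naringenin 1 and 2 on a day of their own. Scan day and group therefore cannot be told apart in any comparison with control. The fitted changes of the 4 genes are given with all 9 arrays and without CaPO4 2 and naringenin 3.

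Glycerol kinase, encoded by Gk on the X chromosome, phosphorylates glycerol so that it can enter lipid synthesis or glycolysis. G6pd2 on chromosome 5 is an intronless copy of the X-linked G6pdx, which encodes the glucose-6-phosphate dehydrogenase that opens the pentose phosphate pathway. The copy is known in mouse from the testis. Hmgcs1 on chromosome 13 encodes the cytosolic HMG-CoA synthase of the cholesterol pathway, and its transcription is raised by sterol-regulated factors when cell sterol is low. Tfrc on chromosome 16 encodes the transferrin receptor, which takes up iron-loaded transferrin, and its mRNA is stabilised by iron regulatory proteins when iron is scarce.

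Across the arrays the levels of Hmgcs1 and Tfrc correlated at r = 0.779, as given further on. The named genes most like Hmgcs1 reached 0.987 to 0.992, and those most like Tfrc 0.918 to 0.982. Whether the pair shares regulation was not tested. The 250 bases before the start of each gene of the pair are shown. Both are RefSeq windows on GRCm38.p6, whereas the array design was annotated to mm9. The Hmgcs1 window is chr13:119690101-119690350 and the Tfrc window, the first of 2 listed for that gene, is chr16:32608646-32608895, both on the plus strand and written 5′ to 3′. Capitals mark the letters CACCCCAC, a core of sterol regulatory elements, and the CCAAT box, which reads ATTGG where it lies on the other strand. Both motifs were searched on both strands, and no match overlapped another.
Hmgcs1: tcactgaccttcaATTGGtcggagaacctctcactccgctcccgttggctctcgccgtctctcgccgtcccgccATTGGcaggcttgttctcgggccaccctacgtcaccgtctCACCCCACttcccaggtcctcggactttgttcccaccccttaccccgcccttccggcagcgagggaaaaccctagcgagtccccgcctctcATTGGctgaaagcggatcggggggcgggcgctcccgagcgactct
Tfrc: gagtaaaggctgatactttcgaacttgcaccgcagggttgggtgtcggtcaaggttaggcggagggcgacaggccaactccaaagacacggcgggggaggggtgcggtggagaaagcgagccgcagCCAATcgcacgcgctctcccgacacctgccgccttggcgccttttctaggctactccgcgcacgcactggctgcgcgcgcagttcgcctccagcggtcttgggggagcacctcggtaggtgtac
The Hmgcs1 window held the sterol element core 1 time, at position -136 from the start, and CCAAT 3 times, at -237, -176 and -45. The Tfrc window held CCAAT 1 time, at -124, and the sterol element core 0 times. Over all 32851 windows of this length, 2.58% held the sterol element core and 33.8% held CCAAT. The windows of Gk and G6pd2 held neither. The G6pd2 window had 30% G and C and 0 CpG, against 67.2% and 21 CpG before Gk, 64.8% and 23 before Hmgcs1, and 64.8% and 25 before Tfrc.

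The kinship of G6pd2 with G6pdx is visible in sequence around their starts. The longest stretch shared by their longer RefSeq windows, of 250 bases before and 50 after the start, has 27 bases, and is shown because a probe for one gene could lie in sequence that both share. It lies at chr5:61808833-61808859 on the plus strand, from position -10 of G6pd2, and at chrX:74428839-74428865 on the minus strand, from base 16 of G6pdx.
G6pd2 and G6pdx: ctacagatctgtgaacgtgtttggcag
The sequences of the probes were not used here, so whether the G6pd2 probe also binds G6pdx RNA was not tested, and G6pd2 values are uncertain to that extent. G6pdx itself was not among the genes named on the array.

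Gk was lowest in naringenin aortas and highest in controls. The level was -0.69, -0.84 and 0.08 on naringenin 1 to 3, then 1.39, -1.01 and 1.31 on CaPO4 1 to 3, and 1.95, 2.06 and 1.91 on the controls. CaPO4 2 lay just below the naringenin arrays and the other CaPO4 arrays lay nearer to the controls, so naringenin and CaPO4 overlapped while neither overlapped the controls. The mean was -0.49 ± 0.49 in naringenin aortas, 0.57 ± 1.36 in CaPO4 aortas and 1.98 ± 0.08 in controls (SD, n = 3 each). With aorta RNA in bulk, fewer cells of a type and less RNA per cell cannot be told apart.

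G6pd2 followed the same order. Its level was 0.14, 0.09 and 0.25 on naringenin 1 to 3, 1.64, -0.16 and 1.78 on CaPO4 1 to 3, and 2.06, 2.17 and 2.12 on the controls. The 3 naringenin arrays were close together, at a mean of 0.16 ± 0.08, and so were the controls at 2.11 ± 0.06, whereas CaPO4 aortas averaged 1.09 ± 1.09 (SD, n = 3 each). Before scaling, the intensities on naringenin 1 to 3 were 96.1, 98.4 and 280. As for Gk, neither treated group overlapped the controls, and CaPO4 2 lay below the naringenin arrays. Across the 9 arrays the levels of the pair correlated at r = 0.986, or 0.997 without CaPO4 2 and naringenin 3. The arrays of a group may share RNA, and most share a scan day.

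Hmgcs1 had high levels on every array. They were 6.33, 6.23 and 5.23 on naringenin 1 to 3, 4.94, 6.83 and 4.99 on CaPO4 1 to 3, and 6.38, 6.25 and 6.45 on the controls. Naringenin 1 and 2 stood at the control level, naringenin 3 was lower, and CaPO4 1 and 3 were the lowest while CaPO4 2 was the highest of all 9. Before scaling, naringenin 3 was instead the highest of its group, with an intensity of 8790 against 7020 and 6910. Naringenin aortas averaged 5.93 ± 0.61, CaPO4 aortas 5.59 ± 1.08 and controls 6.36 ± 0.10 (SD, n = 3 each), and all groups overlapped.

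Tfrc had levels of 4.91, 4.82 and 4.01 on naringenin 1 to 3, 3.00, 5.32 and 3.07 on CaPO4 1 to 3, and 3.81, 3.85 and 4.02 on the controls. Naringenin 1 and 2 and CaPO4 2 were high, CaPO4 1 and 3 were low, and naringenin 3 lay within the controls. Before scaling, naringenin 3 was the highest of its group, with an intensity of 3780 against 2610 and 2610. The mean was 4.58 ± 0.50 in naringenin aortas, 3.79 ± 1.32 in CaPO4 aortas and 3.89 ± 0.11 in controls (SD, n = 3 each), with all groups overlapping. Over the 9 arrays Tfrc correlated with Hmgcs1 at r = 0.779 and with Gk at -0.782, or 0.782 and -0.718 without CaPO4 2 and naringenin 3.

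**Figure D1:**
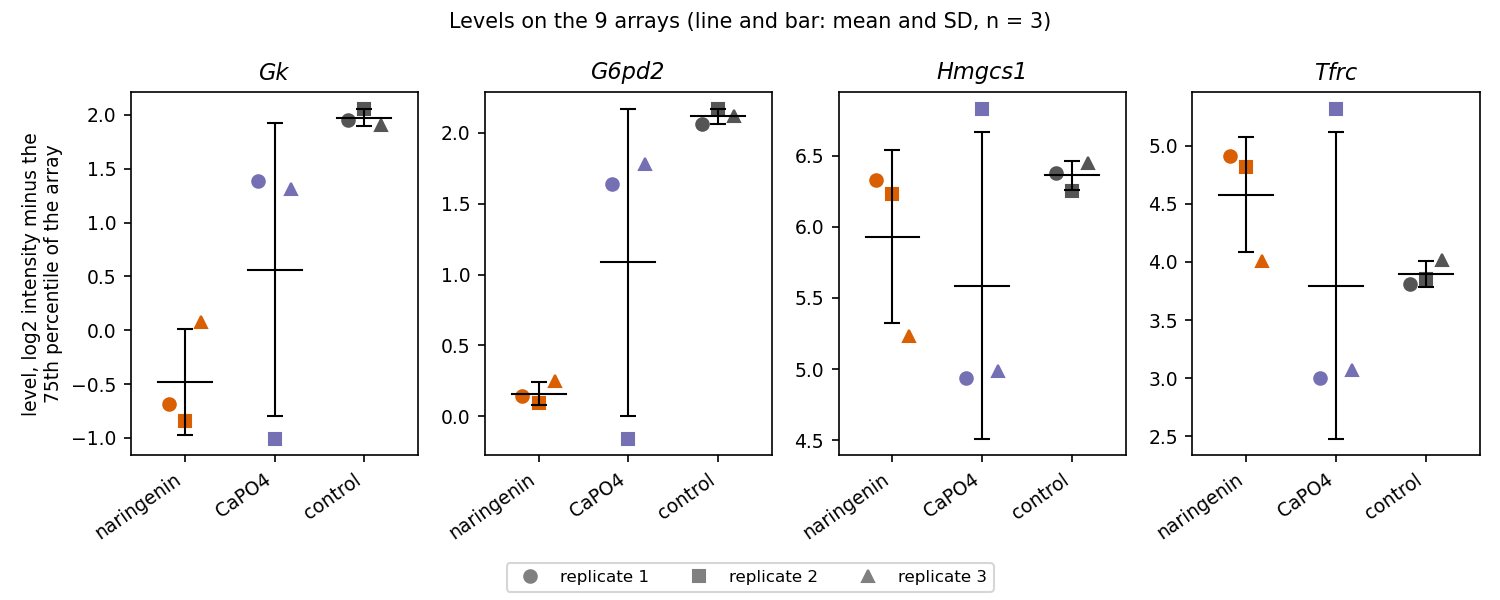
Level of each gene (vertical axis, log2 intensity relative to the array's 75th percentile) on the naringenin, CaPO4 and control arrays, with symbols for replicates 1 to 3 and lines for the mean and SD. CaPO4 2 stands apart from CaPO4 1 and 3 for all 4 genes, for example at -1.01 against 1.39 and 1.31 for Gk. In these scaled levels naringenin 3 is the lowest of its group for Hmgcs1 and Tfrc.

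In naringenin aortas compared with controls, Gk and G6pd2 fell and the other genes did not pass the test. Gk fell by 2.46 log2 (SE 0.59, 95% interval -3.78 to -1.15, 5.51-fold lower, limma adjusted p = 0.00811). G6pd2 fell by 1.95 (SE 0.48, interval -3.02 to -0.89, 3.87-fold lower, limma adjusted p = 0.00891). The 2 of 4 genes called stand beside 45.9% of all 37307 probes called in this comparison, 23.3% lower and 22.6% higher, so the share is near the background. Likewise the 2 of 4 genes without overlap stand beside 67.8% of all probes.

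Hmgcs1 differed between naringenin and control aortas by -0.43 log2, with an interval of -1.60 to 0.74 (limma adjusted p = 0.52). Tfrc differed by 0.69, with an interval of -0.60 to 1.98 (0.348). These intervals hold differences of more than 2-fold, so they do not show equal levels. Hmgcs1 passed under quantile normalization, with a fall by 1.0 (limma adjusted p = 0.0322), and with normexp background correction before it, with a fall by 0.93 (0.0209). Without CaPO4 2 and naringenin 3 the interval of Hmgcs1 narrowed to -0.34 to 0.18 around -0.08 (limma adjusted p = 0.537). In the same fit Tfrc rose by 0.97 (SE 0.11, 1.96-fold, 0.000507), Gk fell by 2.74 (6.70-fold, 1.14e-05) and G6pd2 fell by 2.00 (3.99-fold, 2.31e-05). There, 3 of 4 genes were called beside 70% of all probes, 33.3% lower and 36.7% higher. Without scaling of these arrays 15692 probes were called lower and 10721 higher, around a median shift of -0.32, and Hmgcs1 fell by 0.46 (limma adjusted p = 0.00924).

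In CaPO4 aortas compared with controls, 0 of 4 genes passed limma's test and 1, Gk, had an unadjusted p under 0.05, while 21.5% of all probes were called, 11.4% lower and 10.1% higher. Gk differed by -1.41 log2 (SE 0.59, interval -2.73 to -0.09, limma adjusted p = 0.111) and G6pd2 by -1.03 (SE 0.48, interval -2.09 to 0.04, 0.145). The 2 genes without overlap stand beside 48.5% of all probes. Hmgcs1 differed by -0.77 (SE 0.52, interval -1.94 to 0.40, 0.306). Under quantile normalization Hmgcs1 fell by 1.43 (limma adjusted p = 0.0151). Without scaling, where the median of all probes shifted by -1.15, Gk fell by 2.52 (0.0168) and G6pd2 by 2.14 (0.0151), beside 11533 probes called lower and 326 higher. With median scaling 2970 probes were called lower and 5234 higher, and with the percentile taken over probes detected on all arrays 5655 lower and 2703 higher, against 4241 and 3765 in the scaling used here. Tfrc differed by -0.10 (SE 0.58, interval -1.39 to 1.19, 0.917), and by 0.13 when arrays were scaled on their median.

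Leaving out CaPO4 2 and naringenin 3 turned this into 4 of 4 genes called, all lower in CaPO4 aortas, beside 52.9% of all probes called, 29.2% lower and 23.7% higher. Without scaling of these arrays, where the median of all probes shifted by -1.54, 29359 probes were called lower and 1076 higher, so that nearly all calls were lower. The 4 genes then fell by 2.05 for Gk, 1.82 for G6pd2, 2.82 for Hmgcs1 and 2.28 for Tfrc. With the scaling used here, Hmgcs1 averaged 4.97 ± 0.04 in CaPO4 aortas (SD, n = 2) and 6.36 ± 0.10 in controls (SD, n = 3). That was a fall by 1.39 (SE 0.11, 2.63-fold, limma adjusted p = 0.000344). Tfrc averaged 3.03 ± 0.05 in CaPO4 aortas and 3.89 ± 0.11 in controls, a fall by 0.86 (SE 0.11, 1.82-fold, 0.00168). Gk fell by 0.62 (SE 0.10, 0.0045) and G6pd2 by 0.40 (SE 0.10, 0.0175), but for these the spots of the 2 sides of the array differed, as described further on. Hmgcs1 had 1 spot, so its sides could not be compared. With CaPO4 2 alone left out, only Hmgcs1 was called, with a fall by 1.39 (0.0171), beside 11748 of all 37307 probes.

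Between naringenin and CaPO4 aortas, 0 of 4 genes passed limma's test, and 0 had an unadjusted p under 0.05, beside 2.18% of all 37498 probes called, 0.808% higher and 1.38% lower. Gk differed by -1.05 log2 (SE 0.59, interval -2.37 to 0.26, limma adjusted p = 0.271) and G6pd2 by -0.92 (SE 0.48, interval -1.99 to 0.14, 0.237). Without any scaling, where the median of all probes shifted by 1.30, these differences turned to 0.14 and 0.27, below that shift, and 5 probes were called lower and 289 higher. With median scaling 1121 probes were called lower and 300 higher, and with the percentile over probes detected on all arrays 306 lower and 361 higher, against 516 and 303 in the scaling used here. Hmgcs1 differed by 0.34 (SE 0.52, interval -0.83 to 1.51, 0.693) and Tfrc by 0.79 (SE 0.58, interval -0.50 to 2.08, 0.395). Overlap of the groups was seen for all 4 genes, as for all but 24.2% of probes. Within the 5 arrays of the one scan day that holds both groups, the differences were -1.33 for Gk, -0.97 for G6pd2, 0.69 for Hmgcs1 and 1.07 for Tfrc, with limma adjusted p between 0.466 and 0.592, and 0 of all probes were called.

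Without CaPO4 2 and naringenin 3, all 4 genes were called between naringenin and CaPO4 aortas, beside 58% of all probes, 24.1% lower and 34% higher. Without scaling of these arrays, where the median of all probes shifted by 1.27, 3342 probes were called lower and 24213 higher. Gk then fell by 1.08 (2.11-fold), G6pd2 fell by 0.55 (1.47-fold), Hmgcs1 rose by 2.36 (5.12-fold) and Tfrc rose by 2.88 (7.34-fold). With the scaling used here, Gk averaged -0.77 ± 0.11 in naringenin aortas and 1.35 ± 0.05 in CaPO4 aortas (SD, n = 2 each). That was a fall by 2.12 (4.34-fold, limma adjusted p = 6.86e-05). G6pd2 averaged 0.12 ± 0.03 in naringenin aortas and 1.71 ± 0.10 in CaPO4 aortas, a fall by 1.60 (3.02-fold, 0.000117). Both of these genes were also lower in naringenin aortas than in controls. Hmgcs1 averaged 6.28 ± 0.07 in naringenin aortas and 4.97 ± 0.04 in CaPO4 aortas, a rise of 1.32 (2.49-fold, 0.00029). Tfrc averaged 4.86 ± 0.06 in naringenin aortas and 3.03 ± 0.05 in CaPO4 aortas, a rise of 1.83 (3.56-fold, 0.000106). All 4 calls were also made when only CaPO4 2 was left out, and none when only naringenin 3 was, so they rest on leaving out CaPO4 2. Of all 37498 probes, 17033 were called without CaPO4 2 alone and 174 without naringenin 3 alone.

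**Figure D2:**
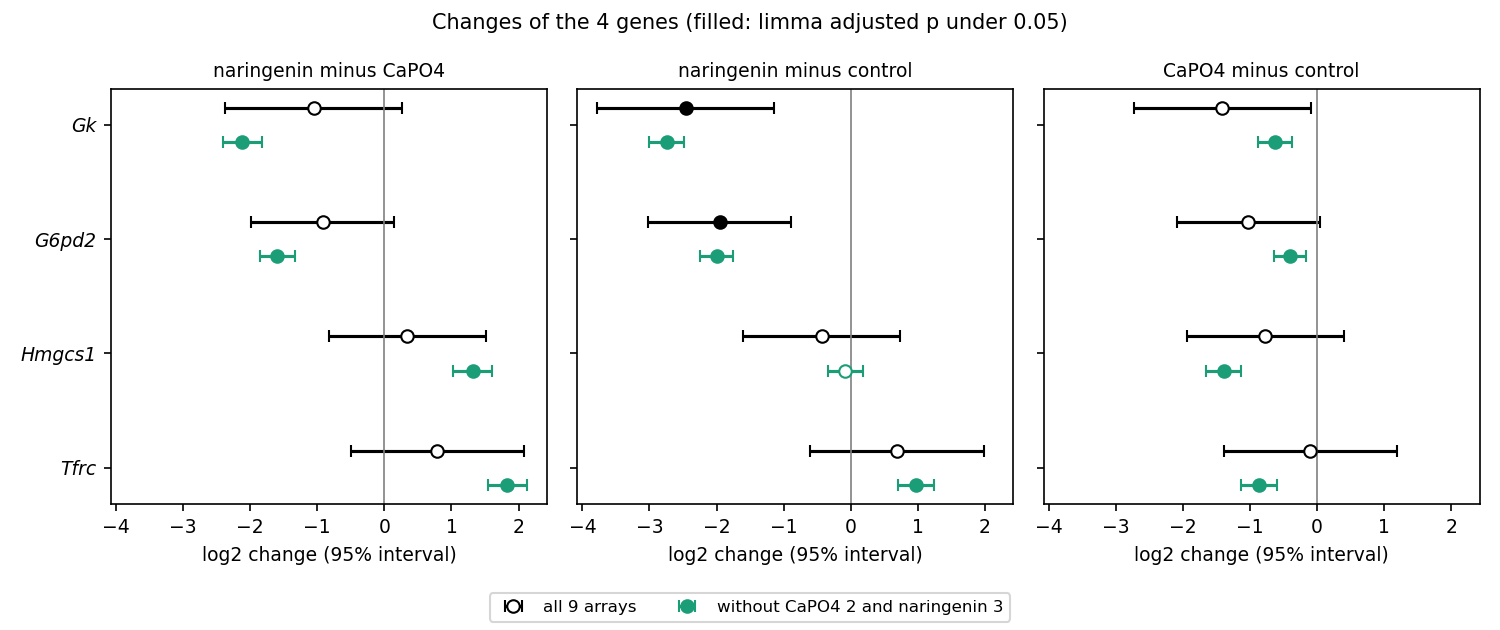
Difference in log2 level (horizontal axis, with 95% interval) for naringenin minus CaPO4, naringenin minus control and CaPO4 minus control, from all 9 arrays (upper, black) and without CaPO4 2 and naringenin 3 (lower, green), filled where the limma adjusted p was under 0.05. With all arrays only Gk at -2.46 and G6pd2 at -1.95 in naringenin minus control are filled, and without the pair of arrays every symbol is filled but that of Hmgcs1 at -0.08.

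Gk, G6pd2 and Tfrc were each printed in 20 spots over the array, whose 164 columns and 384 rows allow the same probe to be read at different places. Hmgcs1 had 1 spot, in column 22, so it has no such reading. Spots of 1 probe on 1 array share their RNA and are no replicates of a group. The spots of Tfrc had SDs of 0.04 to 0.17 log2 within an array. The spots of Gk had SDs of 0.98, 1.13 and 1.04 on the controls, where the brightest was 7.53, 13.2 and 10.1 times the dimmest. On naringenin 1 to 3 the SDs of Gk were 0.21, 0.22 and 0.11, and on CaPO4 1 to 3 they were 0.65, 0.19 and 0.48. Of the 15 genes printed repeatedly, Gk had the widest spread on the 3 controls, CaPO4 1 and CaPO4 3, and the second widest on the other arrays. The 12 such genes outside Gk, G6pd2 and Tfrc had median SDs of 0.04 to 0.10 and, on the controls, a highest SD of 0.26 to 0.35.

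The spread of Gk followed the place of the spot. On the controls, the 9 spots in columns 1 to 82 had mean levels of 2.54, 2.65 and 2.49, and the 11 spots in columns 83 to 164 had 0.94, 0.94 and 0.87. The left side was thus higher by 1.60, 1.71 and 1.62 on the 3 controls. On CaPO4 1 to 3 the left side was at 0.62, -1.14 and 0.79 and the right side at 1.79, -0.92 and 1.62, so that the left side differed by -1.17, -0.23 and -0.83 and the order of the sides was turned. On naringenin 1 to 3 the difference was -0.11, -0.29 and 0.07. A right-side spot in column 126 and row 377 was an exception, with control levels of 2.83, 2.69 and 2.95 like those of the left side. Another, in column 146 and row 292, was at 2.40 on control 2 but at 0.92 and 0.99 on control 1 and 3.

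G6pd2 showed a like pattern on some arrays. Its 14 left-side spots averaged 2.21 and its 6 right-side spots 1.38 on control 1, a difference of 0.83. On CaPO4 1 and 3 the difference was -0.44 and -0.30. The sides did not part the spots of control 1 fully. A left-side spot in column 70 and row 186 was at 0.87 there, and a right-side spot in column 87 and row 275 was at 2.28. On control 2 and control 3, Feature Extraction had marked 4 of the 6 right-side spots as outliers, at levels of 1.02 to 1.28 and 0.93 to 1.16, and these were left out, after which the sides differed by 0.21 and -0.03. With the marked spots kept, the fall of G6pd2 in naringenin aortas against controls was 1.80, with limma adjusted p = 0.0128. The sides of Tfrc differed by -0.03 to 0.11 on the 9 arrays.

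Over the single-spot probes, 18625 on the left and 18859 on the right, the median of the left side was higher by 0.23, 0.28 and 0.25 on the controls. It differed by -0.13, -0.05 and -0.07 on CaPO4 1 to 3 and by -0.02, -0.09 and 0.04 on naringenin 1 to 3. These sides hold different probes, and their part in the Gk pattern was not tested. The 1 spot of Hmgcs1, in column 22, lies on the left side, and the part of its place in the Hmgcs1 differences was not tested. The 12 other repeated genes differed between sides by -0.11 to 0.24 on the controls. Among them Tbp, which encodes the TATA-binding protein and was picked after its values were seen, had a smaller difference that also turned. Its left side differed by -0.14, -0.10 and 0.01 on naringenin 1 to 3, by -0.17, -0.02 and -0.12 on CaPO4 1 to 3, and by 0.19, 0.24 and 0.21 on the controls. Ldhal6b had the largest side difference of the 12 on naringenin 1 and 2, at -0.32 and -0.40. It was dim there, with side means from -4.02 to -3.52, and its spot SDs of 0.71 and 0.63 exceeded these differences. The sides were chosen after the spot values had been seen.

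**Figure D3:**
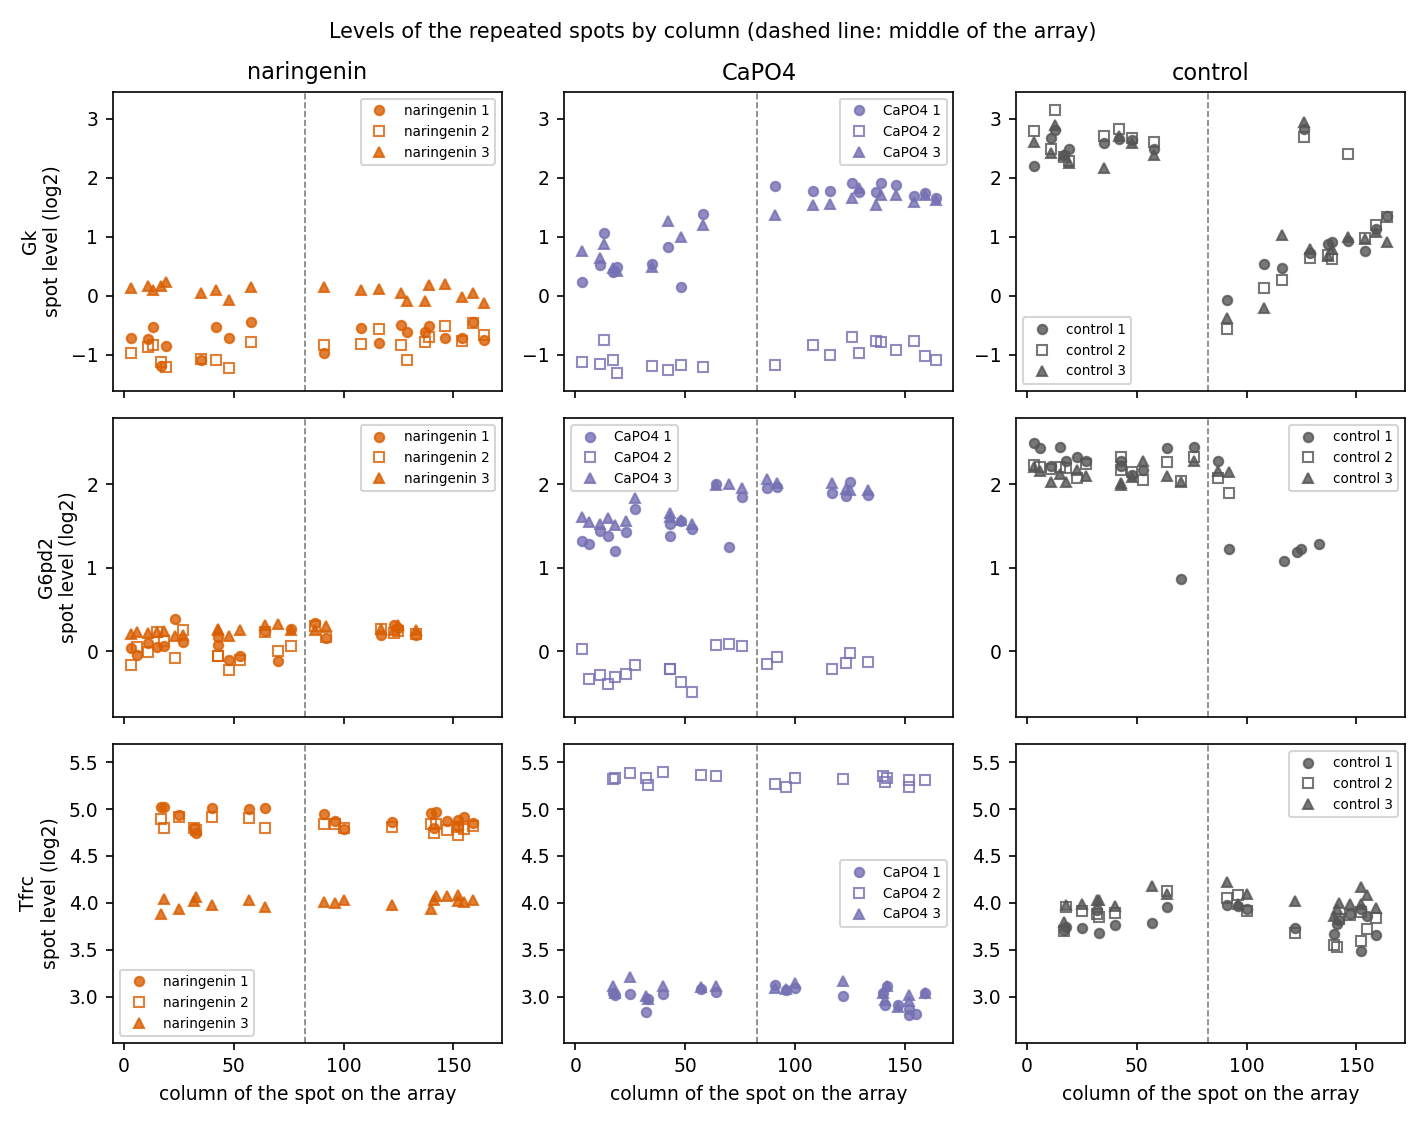
Level of each spot (vertical axis, log2 intensity relative to the array's 75th percentile) against its column for Gk, G6pd2 and Tfrc in the naringenin, CaPO4 and control groups, with outlier spots left out and a dashed line at the middle of the array. On the controls Gk is near 2.54 left of the line and mostly near 0.94 right of it, CaPO4 1 and 3 run the other way, and Tfrc is level throughout.

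The naringenin and control comparison kept its direction in every spot of the 3 repeated genes. Gk was lower in naringenin aortas in 20 of 20 spots, by differences of -3.37 to -0.20, and G6pd2 in 20 of 20, by -2.28 to -0.84. For the 4 right-side G6pd2 spots marked as outliers on control 2 and 3, the control level was that of control 1 alone. The right-side values of G6pd2 given below rest on 2 spots on control 2 and 3. Tfrc was higher in 20 of 20 spots, by 0.52 to 0.89, although its test over arrays was not passed. The size for Gk depended on the side. From the left-side spots Gk fell by 3.13 (8.73-fold, limma adjusted p = 0.00178), and from the right-side spots the difference was -1.62 (interval -3.03 to -0.22, 0.0577), which did not pass. Without CaPO4 2 and naringenin 3 both sides passed for Gk, which fell by 3.46 on the left (SE 0.13, 1.06e-05) and by 1.87 on the right (SE 0.10, 3.3e-05). G6pd2 fell by 2.07 on the left (0.00593) and by 1.60 on the right (0.0314), and without those arrays by 2.13 (2.47e-05) and 1.62 (0.00111). Tfrc differed by 0.69 on the left (0.35) and 0.68 on the right (0.348), and without those arrays rose by 0.99 (0.000461) and 0.96 (0.000598).

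For CaPO4 against control, the direction of Gk depended on where the spots lay. With all arrays, Gk was lower in CaPO4 aortas in 9 of 9 left-side spots and in 5 of 11 right-side spots. From the left-side spots it fell by 2.46 (5.49-fold, limma adjusted p = 0.0121), and from the right-side spots it differed by -0.35 (interval -1.75 to 1.05, 0.716). Without CaPO4 2 and naringenin 3, Gk fell by 1.83 on the left (SE 0.13, 0.00027) and rose by 0.52 on the right (SE 0.10, 0.00811). The fall of 0.62 given above for that set of arrays therefore mixes spots of opposite direction, 10 higher and 10 lower. Spots were averaged as intensities before the log2, so it is not the mean of the spot differences. G6pd2 in the same arrays fell by 0.59 on the left (0.0058) and differed by 0.10 on the right (interval -0.44 to 0.64, 0.728). In that set G6pd2 was lower in CaPO4 aortas in 14 of 14 left-side spots and higher in 5 of 6 right-side spots. For 4 of the 6, only control 1 gave a control level. The right side thus rested on 2 spots on control 2 and 3 (means 1.98 and 2.15) and on 6 on control 1 (1.38). The right-side value of 0.10 therefore does not show equal levels. Tfrc fell by 0.86 on the left (0.0017) and by 0.87 on the right (0.00178).

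Between naringenin and CaPO4 aortas the place of the spots changed no direction. Gk and G6pd2 were lower in naringenin aortas in 20 of 20 spots each, and Tfrc was higher in 20 of 20, with all arrays and without CaPO4 2 and naringenin 3. With all arrays Gk differed by -0.67 on the left (limma adjusted p = 0.425) and by -1.27 on the right (0.22), G6pd2 by -0.88 (0.244) and -1.01 (0.242), and Tfrc by 0.78 (0.401) and 0.79 (0.391). In the smaller set of arrays Gk fell by 1.62 on the left (limma adjusted p = 0.000262) and by 2.39 on the right (5.05e-05), and G6pd2 by 1.53 (0.000174) and 1.71 (0.0017). Tfrc rose by 1.85 on the left (0.000104) and by 1.82 on the right (0.000116).

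**Figure D4:**
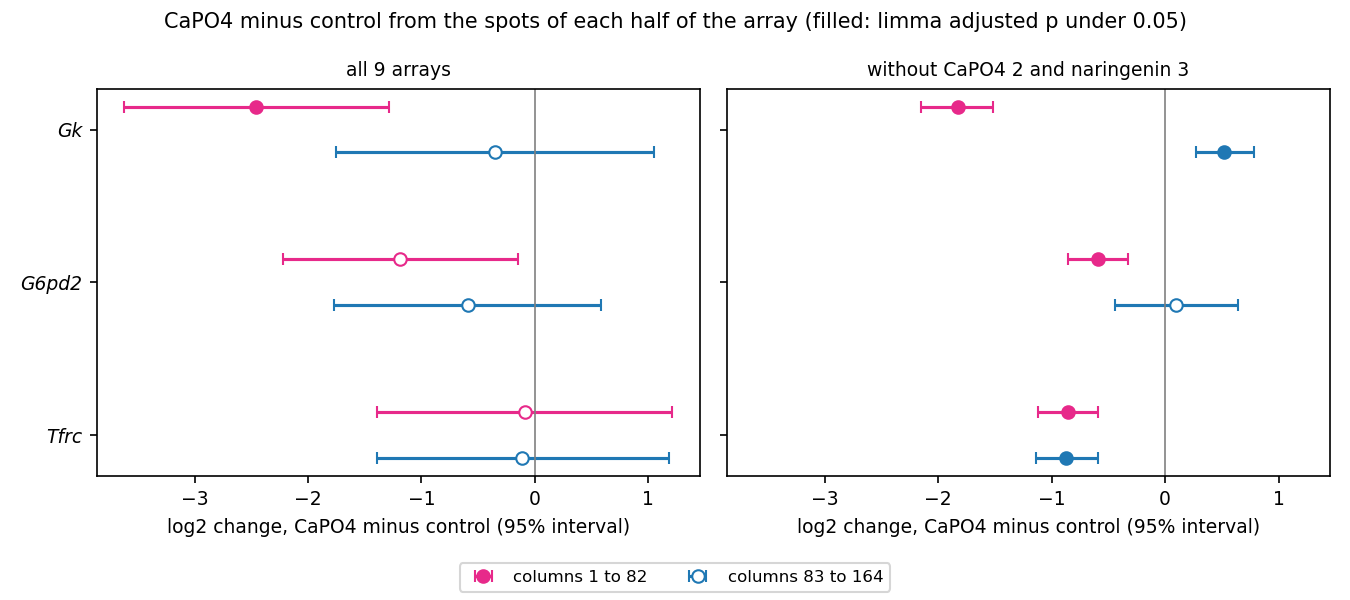
CaPO4 minus control difference in log2 level (horizontal axis, with 95% interval) of Gk, G6pd2 and Tfrc from spots in columns 1 to 82 (upper) and 83 to 164 (lower), with all 9 arrays (left panel) and without CaPO4 2 and naringenin 3 (right panel), filled where the limma adjusted p was under 0.05. In the right panel Gk lies at -1.83 and 0.52, on opposite sides of 0, while both Tfrc values lie near -0.86.

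Among 98 other genes named by RefSeq, the levels most like those of Gk over the 9 arrays were those of Nlrp4g (r = 0.996), Gm3286 (0.977) and E330014E10Rik (0.949). The same genes were most like G6pd2, at 0.986, 0.987 and 0.962. Nlrp4g had levels of 0.76, 0.78 and 1.17 on naringenin 1 to 3, 1.98, 0.66 and 1.87 on CaPO4 1 to 3, and 2.10, 2.21 and 2.09 on the controls, with CaPO4 2 again beside the naringenin arrays. For Hmgcs1 the most alike were Tsnax (0.992), Hprt, an enzyme of purine salvage (0.989), and Ppia, the peptidyl-prolyl isomerase cyclophilin A (0.987). For Tfrc they were H2ac18, a histone gene (0.982), Gapdh, a glycolytic enzyme (0.919), and Tagap (0.918). The arrays of a group may share RNA, and most share a scan day, so these values describe the 9 arrays only.

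The other genes of the pathways could hardly be followed on this array. Of 26 genes of cholesterol synthesis and uptake only Hmgcs1 was named, of 17 iron genes only Tfrc, and of 14 genes of glycerol and triglyceride metabolism only Gk. Of 20 genes of glucose 6-phosphate metabolism, G6pd2 and Gapdh were named. Gapdh had levels of 9.62, 9.61 and 8.27 on naringenin 1 to 3, 7.77, 9.75 and 7.97 on CaPO4 1 to 3, and 7.95, 8.0 and 8.05 on the controls. Like Tfrc, it was high on naringenin 1, naringenin 2 and CaPO4 2, and it passed limma's test in 0 of 3 comparisons with all arrays. Without CaPO4 2 and naringenin 3 it rose by 1.61 in naringenin aortas against controls (limma adjusted p = 5.85e-05) and by 1.74 against CaPO4 aortas (0.000109). Its difference between CaPO4 aortas and controls was -0.13 (0.332).

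The labelled tissue could not be checked, since 0 of 6 smooth muscle, 0 of 5 endothelial, 0 of 6 fibroblast, 0 of 6 macrophage, 0 of 5 lymphocyte, 0 of 6 adipocyte and 0 of 5 erythroid markers were named on the array. Of 8 markers of pancreatic acinar cells 1 was named, the amylase gene Amy2a5, so its level is the whole of that list here. It was 11.03, 11.15 and 9.96 on naringenin 1 to 3, 2.07, 11.08 and 2.08 on CaPO4 1 to 3, and 0.14, 0.57 and 0.74 on the controls. Amy2a5 was thus high on the arrays where Gk and G6pd2 were low, CaPO4 2 included, and its part in their differences was not tested. Of 6 testis markers 2 were named, the Y-linked multicopy genes Ssty1 and Ssty2, whose copies a probe may not tell apart. Ssty2 was at 3.43, 3.37 and 2.22 on naringenin 1 to 3, 0.92, 2.84 and 0.69 on CaPO4 1 to 3, and -0.51, -0.54 and -0.82 on the controls, and Ssty1 ran from 2.10 to 2.83, from 0.52 to 2.36 and from -0.47 to -0.17 in those groups. The levels of G6pd2 ran the other way, low where these were high.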

How the data were processed

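RNA of 9 mouse abdominal aorta samples was hybridised to 1-colour (Cy3) Agilent arrays after removal of ribosomal RNA and random-primed amplification, per the labels' protocols. The authors made the deposited intensity values with Agilent Feature Extraction 11.0.1.1, per the submitters' processing notes, and the design was annotated to mm9, per the file headers. The deposited table of all arrays held the same unscaled intensity, within 0.0999% of the scanner values.

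Control and outlier spots were left out, and spots of a probe were averaged as intensities (side means of spots are means of log2 values). Values were then taken as log2 relative to the array's 75th percentile. Of 59709 probes, the 37498 that exceeded background clearly on 3 or more arrays were kept, and a probe with repeated spots counted where 50% of them were. With 191 probes lacking a value in 1 group, 37307 entered the comparisons with control. A mean per group was fitted to all 9 arrays with limma 3.58.1 (R 4.3.3) and tested two-sided with eBayes, Benjamini-Hochberg adjustment over all probes with calls made below an adjusted p of 0.05. Intervals are 95%. The number of arrays limits the precision.

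RefSeq accessions were named through a reference table (116 of 123 matched), and sequences came from RefSeq, GRCm38.p6. Named beside the 4 genes are the 3 genes most like each, members of pathway and marker lists, and Amy2a5. The genes and lists were chosen with earlier results of these data known. Alternatives covered scaling, background, filters, spots, scan and replicate blocks, and left-out arrays; spot sides, and no scaling without both arrays, were added after seeing the data. The fit was tested on simulated data. Figures were drawn with matplotlib 3.10.9.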

Additional observations from a re-analysis of the deposited data

How the results depend on the processing

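The fall of Gk and of G6pd2 in naringenin aortas against controls was called under every scaling, filter, block and left-out array tried, and of the spot sides, right-side spots of all 9 arrays ended the call of Gk (-1.62) while right-side spots without CaPO4 2 and naringenin 3 kept it (-1.87). Leaving out each array in turn gave changes of -2.74 to -2.28 for Gk and -2.0 to -1.92 for G6pd2, with 2 to 2 of the 4 genes called. That count was 1 with right-side spots only, beside 17113 of all 37307 probes. With no scaling and without CaPO4 2 and naringenin 3 it was 4, beside 26413.

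The 0 genes called for CaPO4 against control became 2 with no scaling, 1 with quantile normalization, 2 with normexp and quantile normalization, 1 with left-side spots only, and 0 to 1 with each array left out in turn. Of all 37307 probes, 11859 were called with no scaling, 9119 with quantile normalization and 9304 with normexp before it. With left-side spots only 8007 were called, and with the main settings 8006. Without CaPO4 2 and naringenin 3 the count of genes was 4, beside 19743 probes. It was also 4 with left-side spots only and with no scaling, and 3 with right-side spots only. The difference of Tfrc turned to 0.13 with median scaling and ran from -0.86 to 0.30 with each array left out. In right-side spots without both arrays that of Gk turned to 0.52 and that of G6pd2 to 0.10.

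The 0 genes called for naringenin against CaPO4 became 4 without both arrays, also with left-side spots only, right-side spots only and no scaling, and 0 to 4 with each array left out. Without both arrays 21755 of all 37498 probes were called with the scaling used here. With no scaling Gk turned to 0.14 and G6pd2 to 0.27. The causes were not tested. With scan as a random block, Gk and G6pd2 kept limma adjusted p-values of 0.0249 and 0.0263 for naringenin against control. The controls alone were scanned on their day, so this block cannot separate scan day from group in that comparison. The replicate block gave 0.00645 and 0.00982 and changed no call of the 4 genes. Arrays of the same number correlated in their deviations at -0.167 to 0.237, and those of different numbers at -0.28 to 0.252. These values give no sign that the numbers pair samples, but with 3 arrays per group they cannot exclude it. Counts of all probes called ran from 8593 to 26097 for naringenin against control, 2691 to 19743 for CaPO4 against control and 0 to 21755 for naringenin against CaPO4 over the settings other than spot sides and single left-out arrays, with both arrays left out under no scaling giving 26413, 30435 and 27555. With single arrays left out they ran from 12173 to 22840, 2800 to 11748 and 37 to 17033. The number of probes tested differed between settings, and the 8593 were of 19092 probes, those detected on all arrays.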
